A study of Mus musculus with 47 samples.

Results

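The 9 genes described here make the proteins that load peptide onto MHC class II molecules in medullary thymic epithelial cells (mTECs) of the mouse: H2-Aa, H2-Ab1, H2-Eb1, H2-DMa, H2-DMb1, H2-Oa, Cd74, Ciita and Ctss. They were taken by name, with earlier results of these data known, from 2 tables of RNA-seq counts per Ensembl gene, one for adult and one for neonatal mice. All 9 were found in both tables, which share 53402 of 55471 listed genes, and all 9 passed the filter on low counts in both.

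All mice were C57BL/6. The adult table held 23 libraries from mice of 4 to 6 weeks that were either wild type (WT) or AireKO, without the autoimmune regulator Aire, which drives expression of tissue-restricted antigens in mTECs. It had 7 WT and 4 AireKO libraries of mTEChi, and 8 WT and 4 AireKO libraries of mTEClo. The WT mice were 4 or 5 weeks old and the AireKO mice 5 or 6 weeks old. All adult AireKO libraries were from male mice, whereas the WT libraries of both fractions came from male and female mice. Most mTEClo WT libraries were from females and most mTEChi WT libraries from males. Sex is therefore mixed with the adult comparisons of genotype and with that of the WT fractions. The neonatal table held 24 libraries from mice of 1 to 6 days in 4 genotypes. The genotype of the control (Ctrl) mice is not described further in the labels. EEDcKO mice lacked EED, a core subunit of the H3K27-methylating complex PRC2, in cells that expressed Foxn1-Cre, which is active in thymic epithelium. AireKO mice lacked Aire, and AireEEDdKO mice carried both losses. The neonatal mTEChi libraries numbered 5 Ctrl, 3 EEDcKO, 3 AireKO and 3 AireEEDdKO, and the mTEClo libraries 3 Ctrl, 4 EEDcKO and 3 AireEEDdKO. Mice of mTEClo Ctrl were 1 to 3 days old, and those of mTEChi Ctrl and of both EEDcKO fractions 1 to 6 days. AireKO and AireEEDdKO mice were 4 or 6 days old, so age is mixed with several neonatal comparisons. Some neonatal libraries were pooled from male and female mice. No EEDcKO library was from males alone, and no mTEChi library of AireKO or AireEEDdKO was from females alone. Sex is therefore mixed with neonatal comparisons as well. Both fractions were sorted from DAPI-negative, CD45-negative, EpCAM-positive and Ly51-negative cells, mTEChi by a strong and mTEClo by a weak surface stain for MHC class II. The higher H2-Aa and H2-Ab1 of mTEChi is therefore part of the gate and is given as a description.

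MHC class II molecules are pairs of an α chain and a β chain that carry peptides from the endocytic pathway to CD4+ T cells. In the thymus, class II on mTECs presents self antigen to developing T cells, which are then deleted or become regulatory T cells. New pairs bind the invariant chain Cd74, which blocks the groove and steers the complex to endosomes, where cathepsins trim it to a short peptide named CLIP. H2-M, made of H2-DMa and H2-DMb, removes CLIP and edits peptides, and H2-O, made of H2-Oa and H2-Ob, binds H2-M and restrains it. Cathepsin S (Ctss) makes the last cuts of Cd74 in most antigen-presenting cells, while cathepsin L (Ctsl) takes this part in cortical thymic epithelium. Ciita is the coactivator on which class II transcription depends. It does not bind DNA itself but sits on RFX, CREB and NF-Y factors that hold the X and Y boxes of class II promoters. C57BL/6 mice have the H-2b haplotype, which makes no I-E molecule because its Eα gene is defective (listed as H2-Ea-ps), although H2-Eb1 is transcribed.

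Promoter sequences are shown for 4 class II genes that carry the X and Y boxes and for Ctss, in which no such pair was matched. They were read from the RefSeq promoter table (GRCm38), which holds 250 bases before to 50 bases after each gene start. The capitals mark an X box (CNNGNAAC) and a Y box (TGATTGG) 20 to 30 bases after it, or, in Ctss, an interferon-stimulated response element (GAAA, any 2 bases, GAAA). These motifs were chosen after the sequences were seen. Both strands were searched, except that a Y box without a pair was sought in single genes on the gene's own strand only.

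H2-Aa, chr17:34287824-34287933, minus strand: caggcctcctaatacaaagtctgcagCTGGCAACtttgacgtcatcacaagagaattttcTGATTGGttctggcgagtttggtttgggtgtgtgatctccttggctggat

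H2-Eb1, chr17:34305757-34305866, plus strand: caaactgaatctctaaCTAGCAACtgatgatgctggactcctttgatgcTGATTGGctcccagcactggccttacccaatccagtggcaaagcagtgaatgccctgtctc

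H2-Oa, chr17:34092269-34092340, plus strand: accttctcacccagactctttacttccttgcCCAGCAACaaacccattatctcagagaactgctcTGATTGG

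H2-Ob, chr17:34238795-34238902, plus strand: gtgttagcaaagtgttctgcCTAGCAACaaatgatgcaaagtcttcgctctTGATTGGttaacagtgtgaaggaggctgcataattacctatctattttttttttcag

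Ctss, chr3:95526676-95526785, plus strand: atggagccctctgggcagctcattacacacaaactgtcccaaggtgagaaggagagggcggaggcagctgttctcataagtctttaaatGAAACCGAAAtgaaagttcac

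The paired X and Y boxes were found in 25 of 32851 promoter windows (0.0761%), against 7.82% of windows for the Y box alone and 3.44% for the interferon element. The X box began 84 bases before the start in H2-Aa, 94 in H2-Eb1, 97 in H2-DMb1, 79 in H2-Oa and 90 in H2-Ob, and the Y box began 50, 61, 63, 45 and 59 bases before it. In H2-Eb2 the boxes began 135 and 102 bases before the start. In the windows of H2-DMa and Ctss the pair was matched on neither strand, and the Y box was not matched on the gene's own strand. In H2-DMb2 a Y box was matched 92 bases before the start but no pair. A match describes these letters only. H2-Ab1, Ciita and Cd74 had no entry in the promoter table.

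By GENCODE on GRCm38, 6 members lie in the class II region of chromosome 17. These are H2-Oa (34092340-34095234), H2-DMa (34119541-34139101), H2-DMb1 (34153072-34160230), H2-Ab1 (34257689-34269419), H2-Aa (34282744-34287823) and H2-Eb1 (34305867-34316674), all on the plus strand except H2-Aa. Cd74 is on chromosome 18 (60803848-60812652), Ciita on chromosome 16 (10480059-10528418) and Ctss on chromosome 3 (95526786-95556403), all on the plus strand. Counts were summed over the exons of each gene.

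Adult library totals ran from 1602125 to 3938588 counts and neonatal totals from 1578579 to 4817418. They fell into 14 shallow libraries of up to 1915167 counts and 33 deep libraries of at least 2528049 counts. Aire was at 753 to 921 CPM (the usual per-library scaling of counts, here with TMM normalization) in adult mTEChi WT and at 17.1 to 39.3 CPM in adult mTEChi AireKO, and in neonatal mTEChi it was at 464 to 808 CPM in Ctrl and 44.8 to 115 CPM in AireKO. Eed was at 20.4 to 38.8 CPM in neonatal mTEChi Ctrl and at 10.7 to 19.8 CPM in EEDcKO and was lower there (edgeR adjusted p = 0.00139). All 9 mTEC marker genes had counts in every group, with a summed level of 1153 to 3484 CPM. No library of adult mTEChi AireKO, and neither replicate 3 nor 4 of adult mTEClo AireKO, held a count in mitochondrial genes, whereas the other 17 adult libraries did. In adult mTEChi this kind of library and the genotype cannot be told apart, and in adult mTEClo AireKO the 2 libraries without such counts were also the 2 deep ones and the 2 from mice of 6 weeks, the others being from mice of 5 weeks. Markers of other antigen-presenting cells moved with the fraction: the 7 B-cell markers summed to 16.1 to 30.4 CPM in adult mTEClo WT and 104 to 140 CPM in mTEChi WT, and the 12 myeloid markers to 30.6 to 66.1 and 297 to 366 CPM. So did the 10 thymocyte markers (29.9 to 40.7 and 113 to 136 CPM) and the 7 mesenchymal markers (64.2 to 97.7 and 199 to 370 CPM). The 5 endothelial markers overlapped (30.9 to 59.3 and 40.8 to 69.4 CPM). B cells and myeloid cells carry class II as well, and the part of all these markers in the results below was not tested. In such bulk samples fewer cells of a type and less RNA per cell cannot be told apart. The labels do not say whether libraries of a group came from separate mice, so p-values measure the spread between these libraries.

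Levels per kb of annotated exon put the invariant chain first. In adult mTEChi WT, Cd74 was at 433 ± 71.3 CPM per kb (mean ± SD, n = 7), H2-Eb1 at 270.3 ± 57.7, H2-Ab1 at 220 ± 24.6 and H2-Aa at 170.1 ± 30.3 CPM per kb. Ctss followed at 102 ± 12.6, then Ciita at 56.5 ± 8.63, H2-DMb1 at 54.2 ± 3.80, H2-Oa at 41.8 ± 12.3 and H2-DMa at 33.2 ± 0.711 CPM per kb. H2-Eb1 and H2-Ab1, H2-Ab1 and H2-Aa, and the run from Ciita to H2-Oa to H2-DMa were neighbours whose ranges of 1 SD met, so their order is not fixed, while Cd74 and Ctss stood clear of both neighbours. Cd74, H2-Eb1, H2-Ab1 and H2-Aa kept the first 4 places in this order in all 11 groups. H2-Oa was ninth in all 5 mTEClo groups and in neonatal mTEChi Ctrl, eighth in adult mTEChi WT and neonatal mTEChi AireKO, and sixth in adult mTEChi AireKO and in neonatal mTEChi EEDcKO and AireEEDdKO.

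**Figure D1:**
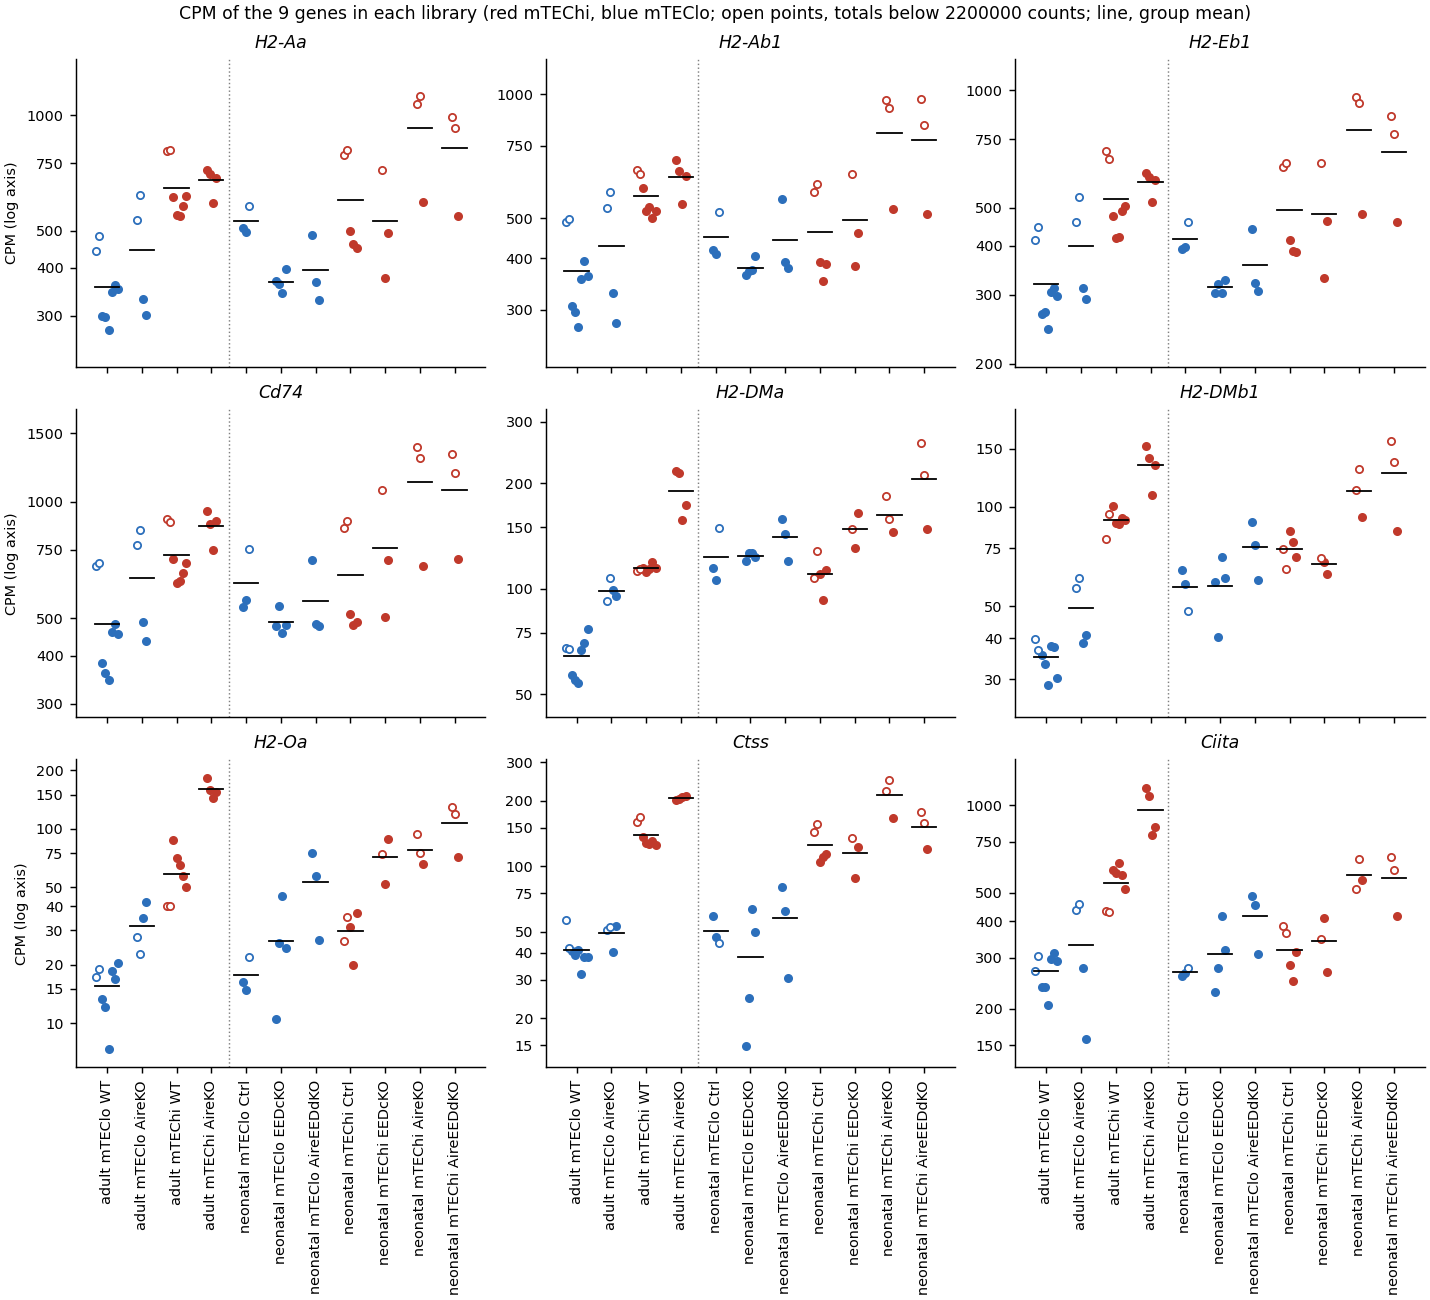
Level of each of the 9 genes in every library (CPM, log scale), by fraction, age and genotype, with red points for mTEChi, blue for mTEClo, open points for shallow libraries and a line for the group mean. In H2-Oa the adult mTEChi WT libraries lie between 40.2 and 87.8 CPM and the AireKO libraries between 144 and 183 CPM, and in H2-Aa and Cd74 the open points lie at the top of most mTEChi groups.

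The fraction comparison asks how the presentation genes differ between the class II-low and class II-high mTECs. The fractions were sorted on class II protein, so member counts, medians and p-values between fractions, here and below, are a description. This holds for H2-Aa and H2-Ab1, and the other members, Ciita and Cd74 among them, are not independent of the sort. In adult WT mice all 9 members were higher in mTEChi, by 0.60 to 1.97 on the log2 scale, and none was lower. Of all 19310 tested genes, 36.8% were higher at an adjusted p under 0.05 (edgeR quasi-likelihood test, Benjamini-Hochberg). 4 members also passed a fold of 2, against 23.7% of all genes. The median log2 difference was 0.86 over the 9 members and 0.00 over all genes. 7 members did not overlap between the fractions in any library, the exceptions being H2-Eb1 and Cd74, and 44.4% of all tested genes did not overlap.

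The chain genes and Cd74 differed by 0.60 to 0.86. H2-Aa was at 275 to 483 CPM in adult mTEClo WT (median 348, n = 8) and at 546 to 812 CPM in mTEChi WT (median 611, n = 7), a log2 difference of 0.86 (SE 0.137, adjusted p = 2.42e-06). H2-Ab1 differed by 0.61 (SE 0.136, adjusted p = 0.000229) and H2-Eb1 by 0.72 (SE 0.138, adjusted p = 3.66e-05). Cd74 was at 346 to 694 CPM in mTEClo (median 457) and at 617 to 904 CPM in mTEChi (median 692), a log2 difference of 0.60 (SE 0.149, adjusted p = 0.000814). For the 2 genes of the gated protein, H2-Aa and H2-Ab1, the difference in RNA stayed under 2-fold.

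Of the 3 members that act in peptide editing, H2-Oa had the largest difference. H2-DMa was at 53.7 to 76.8 CPM in mTEClo WT (median 67.1) and at 112 to 119 CPM in mTEChi WT (median 114), a difference of 0.84 (SE 0.0822, adjusted p = 3.96e-10). H2-DMb1 rose from 28.8 to 39.6 CPM (median 36.2) to 79.9 to 101 CPM (median 91.0), by 1.39 (SE 0.0986, adjusted p = 4.1e-13). H2-Oa, the restraining chain, was lowest in mTEClo WT at 7.38 to 20.4 CPM (median 17.0) and reached 40.2 to 87.8 CPM (median 57.1) in mTEChi WT, by 1.97 (SE 0.179, adjusted p = 8.48e-11). In these 3 genes every mTEChi WT library lay above every mTEClo WT library.

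Cathepsin S and the coactivator moved as well. Ctss was at 32.0 to 56.3 CPM in mTEClo WT (median 39.7) and at 126 to 167 CPM in mTEChi WT, a difference of 1.77 (SE 0.0922, adjusted p = 5.01e-16), with no overlap. Ciita was at 207 to 311 CPM in mTEClo WT (median 281) and at 429 to 636 CPM in mTEChi WT (median 576), a difference of 1.00 (SE 0.153, adjusted p = 1.2e-06), again with no overlap.

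In adult AireKO mice the fractions differed in 8 members, all higher in mTEChi (29.3% of all genes), 4 of them by at least 2-fold (18.5% of all genes). H2-Oa differed by 2.28 (SE 0.223, adjusted p = 6.14e-10), Ctss by 2.07 (SE 0.126, adjusted p = 3.3e-14), Ciita by 1.55 (SE 0.212, adjusted p = 3.28e-07) and H2-DMb1 by 1.48 (SE 0.133, adjusted p = 1.11e-10). Cd74 did not pass at 0.45 (SE 0.204, adjusted p = 0.0599). With the replicate number as a block, all 9 passed and 4 were still at least 2-fold.

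In neonatal mice fewer members passed. In Ctrl, Ctss was the 1 member that was higher in mTEChi (19.3% of all 20196 tested genes), and it also passed a fold of 2 (13.8%). It was at 59.1, 47.0 and 44.4 CPM in mTEClo Ctrl and at 143, 156, 104, 110 and 113 CPM in mTEChi Ctrl, a difference of 1.30 (SE 0.332, adjusted p = 0.00443). H2-Aa, the gated chain, was at 507, 497 and 580 CPM in neonatal mTEClo Ctrl and at 788, 811, 498, 460 and 450 CPM in mTEChi Ctrl, so these groups overlapped. The 2 highest mTEChi Ctrl libraries were shallow and from mice of 6 days, an age absent from mTEClo Ctrl. H2-Oa was at 16.2, 14.7 and 21.9 CPM in mTEClo Ctrl and at 26.4, 35.2, 31.4, 19.8 and 36.8 CPM in mTEChi Ctrl, a difference of 0.78 that did not pass (SE 0.380, adjusted p = 0.106). Summed B-cell markers were at 31.5 to 64.9 CPM in mTEClo Ctrl and 98.2 to 131 CPM in mTEChi Ctrl, and myeloid markers at 93.4 to 163 and 311 to 346 CPM. Cortical epithelial markers were at 1932 to 2970 CPM in mTEClo Ctrl and 421 to 911 CPM in mTEChi Ctrl. The part of these markers was not tested. Age and table cannot be told apart, and the adult and neonatal differences were not tested against each other.

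Without EED, 2 members were higher in mTEChi (19.4% of all genes), both by at least 2-fold (14.2%). These were Ctss, by 1.54 (SE 0.329, adjusted p = 0.00086), and H2-Oa, by 1.40 (SE 0.343, adjusted p = 0.00265). In AireEEDdKO, 8 members were higher in mTEChi (18.9% of all genes), 3 by at least 2-fold (10.4%), and Ciita was the member that did not pass (0.43, SE 0.214, adjusted p = 0.121). Ctss differed there by 1.40 (SE 0.351, adjusted p = 0.00335), H2-Aa by 1.06 (SE 0.271, adjusted p = 0.00389) and H2-Oa by 1.00 (SE 0.359, adjusted p = 0.0299). This count rested on few libraries: it ran from 3 to 9 members when 1 library was left out, fell to 4 with the log2 library total as a term, and to 0 in the deep libraries alone. Summed B-cell markers were at 22.7 to 95.3 CPM in mTEClo and at 159 to 247 CPM in mTEChi of this genotype, and their part was not tested.

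The Aire comparison asks what the presentation genes do when Aire is absent, and it uses the same adult WT libraries as the comparison of fractions. In adult mTEChi, 5 members were higher in AireKO than in WT (26.6% of all genes) and 1, H2-Oa, by at least 2-fold (5.63%). The median log2 difference was 0.56 over the members and -0.01 over all genes. The 5 were H2-DMa, H2-DMb1, H2-Oa, Ciita and Ctss, and in each the groups did not overlap, as in 38% of all tested genes. The chain genes and Cd74 did not pass, with H2-Aa at 0.07 (SE 0.164, adjusted p = 0.749), H2-Eb1 at 0.15 (SE 0.165, adjusted p = 0.459), H2-Ab1 at 0.16 (SE 0.163, adjusted p = 0.432) and Cd74 at 0.25 (SE 0.178, adjusted p = 0.236).

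H2-Oa was at 183, 159, 144 and 155 CPM in the adult mTEChi AireKO libraries, against 40.2 to 87.8 CPM in WT, a difference of 1.42 (SE 0.179, adjusted p = 1.81e-07). Ciita was at 1149, 1073, 789 and 839 CPM in AireKO, against 429 to 636 CPM in WT, a difference of 0.83 (SE 0.179, adjusted p = 0.000267). H2-DMa was at 218, 214, 158 and 174 CPM in AireKO, against 112 to 119 CPM in WT, a difference of 0.74 (SE 0.0937, adjusted p = 2.1e-07). All 4 AireKO libraries lay above all 7 WT libraries in these 3 genes, although the AireKO libraries fell into a higher and a lower pair for Ciita and H2-DMa. The higher pair was from mice of 5 weeks and the lower pair from mice of 6 weeks. Ctss was at 201, 204, 209 and 211 CPM in AireKO (0.58, SE 0.101, adjusted p = 2.41e-05), and H2-DMb1 at 154, 141, 109 and 134 CPM (0.56, SE 0.109, adjusted p = 9.79e-05).

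Library kind and depth moved with this comparison. All 4 adult mTEChi AireKO libraries were without mitochondrial counts. With library kind as a term, 8 members were changed and 4 called, and H2-Oa was at 0.81 with an adjusted p of 0.0976, but that fit takes the effect of kind from 4 mTEClo AireKO libraries, and under it Aire itself was no longer lower. With age as a term, 7 members were changed and 1 called. With sex as a term, 5 were changed and 1 called, as without it. That fit takes the effect of sex from the WT libraries, as all adult AireKO libraries were male. With the log2 library total as a term, or in the deep libraries alone, all 9 members were higher, with H2-Oa the 1 member at least 2-fold. The summed B-cell markers were at 104 to 140 CPM in adult mTEChi WT and at 170 to 203 CPM in AireKO, with 3 of the tested genes higher and 2 lower. The summed myeloid markers were at 297 to 366 CPM in WT and at 376 to 415 CPM in AireKO, with 2 genes higher and 5 lower and Siglech at 0. Their part in the result was not tested.

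In adult mTEClo, 3 members were higher in AireKO than in WT (13.6% of all genes) and 1 by at least 2-fold (4.42%). H2-Oa was at 27.6, 22.5, 34.8 and 41.8 CPM in AireKO, above the 7.38 to 20.4 CPM of WT, with a difference of 1.11 (SE 0.218, adjusted p = 0.000428). H2-DMa was at 92.6, 108, 99.5 and 95.4 CPM, above the 53.7 to 76.8 CPM of WT, with a difference of 0.62 (SE 0.0967, adjusted p = 2.41e-05). H2-DMb1 differed by 0.47 (SE 0.122, adjusted p = 0.00532), with overlap. Within the libraries that held mitochondrial counts H2-Oa was at 0.75 (adjusted p = 0.102), with library kind as a term at 0.73 (adjusted p = 0.0895), and with age as a term at 0.65 (adjusted p = 0.09). Under these settings 7, 7 and 6 members passed, against 3 as reported, and 0 by at least 2-fold. The B-cell markers summed to 49.5 to 71.9 CPM in mTEClo AireKO and 16.1 to 30.4 CPM in WT, the myeloid markers to 88.9 to 125 and 30.6 to 66.1 CPM, and their part was not tested.

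Whether the Aire difference itself differed between the fractions was tested with an interaction term. No member passed (edgeR, adjusted p under 0.05, 25.3% of all genes), 1 member had an unadjusted p under 0.05, and DESeq2 called 0. That member was Ciita, whose Aire difference was larger in mTEChi by 0.55 (SE 0.258, adjusted p = 0.124). In the deep libraries alone the same value was 1.01 (adjusted p = 0.0012), and with library kind as a term 1.15 (adjusted p = 0.000246).

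In neonatal mTEChi, 7 members were higher in AireKO than in Ctrl (13.3% of all genes) and 1, H2-Oa, by at least 2-fold (3.56%), with a median of 0.76 over the members and 0.03 over all genes. H2-Oa was at 93.9, 75.1 and 65.8 CPM in AireKO, above the 19.8 to 36.8 CPM of the 5 Ctrl libraries, with a difference of 1.38 (SE 0.332, adjusted p = 0.0037). Ciita was at 515, 655 and 552 CPM in AireKO and at 384, 364, 284, 248 and 314 CPM in Ctrl, a difference of 0.85 (SE 0.189, adjusted p = 0.00202). H2-DMa was at 184, 158 and 145 CPM, above the 93.2 to 128 CPM of Ctrl, with a difference of 0.55 (SE 0.151, adjusted p = 0.00859). In all 3 genes the groups did not overlap, as in 34.2% of all tested genes.

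H2-Ab1, H2-Eb1 and Cd74 passed here, and the 2 ages were not tested against each other. H2-Ab1 was higher by 0.80 (SE 0.221, adjusted p = 0.00932), Cd74 by 0.80 (SE 0.261, adjusted p = 0.0245) and H2-Eb1 by 0.68 (SE 0.237, adjusted p = 0.035). H2-DMb1 was at 112, 130 and 93.5 CPM in AireKO, above the 64.7 to 84.7 CPM of Ctrl (0.57, SE 0.184, adjusted p = 0.0223). H2-Aa did not pass, at an adjusted p of 0.0507, and nor did Ctss, at an adjusted p of 0.0599, although its AireKO libraries (222, 248 and 167 CPM) all lay above Ctrl (104 to 156 CPM). These values moved with depth. Cd74 was at 1386 and 1300 CPM in 2 shallow AireKO libraries and at 683 CPM in the deep one, while Ctrl had 857 and 889 CPM in its shallow libraries and 480 to 511 CPM in its deep ones. In the deep libraries alone 0 members passed, with 1 AireKO library left, and H2-Oa was at 1.16 (adjusted p = 0.239). The replicate block left 4 members changed, and leaving out 1 library left between 2 and 9. The B-cell markers summed to 93.7 to 116 CPM in AireKO and 98.2 to 131 CPM in Ctrl. The myeloid markers summed to 410 and 373 CPM in the 2 shallow AireKO libraries, above the 311 to 346 CPM of Ctrl, and to 273 CPM in the deep one, below it, with Cd209a at 0 in AireKO. The part of these markers was not tested.

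**Figure D2:**
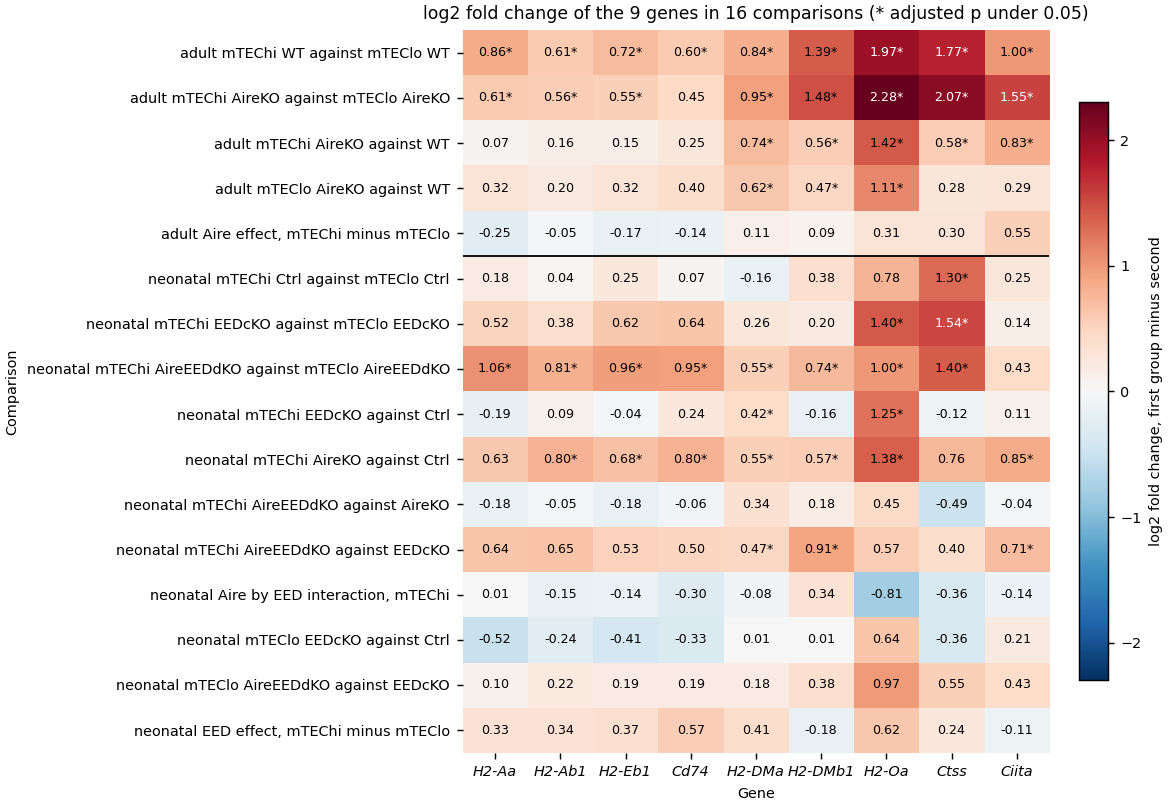
Log2 difference of the 9 genes (columns) in the 16 comparisons and interactions (rows, first group minus second), red for higher and blue for lower, with a star for an adjusted p under 0.05. The H2-Oa column holds the largest difference from WT in both adult fractions, at 1.42 and 1.11.

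The EED comparison asks what loss of PRC2 in thymic epithelium does to the same genes. In neonatal mTEChi, 2 members were higher in EEDcKO than in Ctrl (19.1% of all genes), and 1 by at least 2-fold (8.48%), shares near those of all genes. H2-Oa was at 74.3, 52.1 and 88.7 CPM in EEDcKO, above the 19.8 to 36.8 CPM of Ctrl, by 1.25 (SE 0.327, adjusted p = 0.00524). H2-DMa was at 149, 131 and 165 CPM against 93.2 to 128 CPM, by 0.42 (SE 0.150, adjusted p = 0.0327), and it passed in 9 of 19 alternatives. In the deep libraries alone H2-Oa was at 1.24 (adjusted p = 0.0789). The other 7 members ranged from -0.19 for H2-Aa to 0.24 for Cd74 and did not pass. EEDcKO and AireKO were set against the same Ctrl libraries, so their H2-Oa differences of 1.25 and 1.38 are not independent. The myeloid markers summed to 193 to 333 CPM in EEDcKO and 311 to 346 CPM in Ctrl, with 6 genes lower, and the B-cell markers to 125 to 147 and 98.2 to 131 CPM. Mesenchymal markers summed to 421 to 1079 CPM in the neonatal groups without EED and to 132 to 333 CPM in Ctrl. The part of these markers was not tested.

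In neonatal mTEClo no member passed between EEDcKO and Ctrl (16.8% of all genes were higher, 9.51% by at least 2-fold). 1 member, H2-Aa, had an unadjusted p under 0.05 and DESeq2 called 0. H2-Aa was at 369, 362, 344 and 396 CPM in EEDcKO and at 507, 497 and 580 CPM in Ctrl, a difference of -0.52 (adjusted p = 0.119), and H2-Aa, H2-Ab1 and H2-Eb1 did not overlap, against 36.5% of all tested genes. Cortical epithelial markers summed to 1932 to 2970 CPM in mTEClo Ctrl and to 284 to 975 CPM in mTEClo EEDcKO. The EEDcKO libraries from mice of 1 to 3 days were at 848 and 975 CPM, and those of 6 and 4 days at 363 and 284 CPM. The part of these markers was not tested. In a test of whether the EED difference itself differed between the fractions no member passed (0 of 9 at an adjusted p under 0.05 with edgeR, 0 at an unadjusted p under 0.05 and 0 with DESeq2, 1.98% of all genes).

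When loss of EED was added to loss of Aire in neonatal mTEChi, 0 members passed (AireEEDdKO against AireKO, 9.8% of all genes higher, 6.69% by at least 2-fold), with 0 at an unadjusted p under 0.05 and 0 with DESeq2. H2-Oa was at 130, 119 and 71.5 CPM in AireEEDdKO (0.45, SE 0.363, adjusted p = 0.448). When loss of Aire was added to loss of EED, 3 members were higher (10.6% of all genes), 0 of them by at least 2-fold (4.99%). H2-DMb1 was at 158, 137 and 84.7 CPM in AireEEDdKO, above 70.0, 68.2 and 62.6 CPM in EEDcKO, by 0.91 (SE 0.208, adjusted p = 0.00331). Ciita rose by 0.71 (SE 0.216, adjusted p = 0.0208) and H2-DMa by 0.47 (SE 0.168, adjusted p = 0.045). H2-Oa was not among them at 0.57 (adjusted p = 0.264). H2-DMb1 passed in 16, Ciita in 11 and H2-DMa in 3 of 17 alternatives. Leaving out 1 library left 1 to 6 members, and the deep libraries alone left 0. In the Aire by EED interaction 0 members passed (1.57% of all genes), 0 at an unadjusted p under 0.05 and 0 with DESeq2, with H2-Oa at -0.81 (SE 0.490, adjusted p = 0.437). In mTEClo 0 members passed between AireEEDdKO and EEDcKO (4.96% of all genes higher, 3.45% by at least 2-fold), 2 had an unadjusted p under 0.05 and DESeq2 called 0. These were H2-Oa at 0.97 (adjusted p = 0.081) and Ciita at 0.43 (adjusted p = 0.199).

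Ratios of 2 genes within a library do not use the library total, but they can still move with depth. The log2 ratio of H2-Oa to H2-DMa sets the restraining chain against a chain of the editor. It was -2.08 ± 0.332 in adult mTEClo WT (n = 8) and -1.01 ± 0.417 in mTEChi WT (n = 7), a difference of 1.07 (SE 0.197, exact two-sided permutation p = 0.0001554, adjusted over 8 comparisons p = 0.000622). In neonatal Ctrl it was -2.80 ± 0.0421 in mTEClo and -1.91 ± 0.226 in mTEChi, a difference of 0.89 (SE 0.104, exact permutation p = 0.0179, adjusted p = 0.0204). Neither pair of groups overlapped. In adult mTEChi AireKO the ratio was -0.25 ± 0.133, above WT by 0.76 (SE 0.171, exact permutation p = 0.0121, adjusted p = 0.0204), with overlap. The 2 shallow WT libraries were lowest, at -1.47 and -1.50, against -1.18 to -0.38 in the deep ones. All adult mTEChi AireKO libraries were deep, and the part of depth in the ratio was not tested. In neonatal mTEChi EEDcKO the ratio was -1.07 ± 0.227, above Ctrl by 0.83 (SE 0.166, exact permutation p = 0.0179, adjusted p = 0.0204), with no overlap. With 3 against 5 libraries 0.0179 is the smallest p the permutations can give.

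The log2 ratio of Ctss to Ctsl compares the cathepsin of peripheral and medullary cells with that of cortical epithelium. It was -2.69 ± 0.225 in adult mTEClo WT and 0.85 ± 0.246 in mTEChi WT, a difference of 3.55 (SE 0.122, exact permutation adjusted p = 0.000622). In neonatal Ctrl it rose from -3.43 ± 0.358 to -0.24 ± 0.827, by 3.19 (SE 0.424, exact permutation adjusted p = 0.0204). The 2 shallow mTEChi Ctrl libraries, from mice of 6 days, were at 0.33 and 0.87, and the deep ones at -1.19 to -0.47. The part of depth and age in this ratio was not tested. Cortical epithelial markers summed to 1932 to 2970 CPM in neonatal mTEClo Ctrl and to 421 to 911 CPM in mTEChi Ctrl, whereas in adult WT they summed to 236 to 286 CPM in mTEClo and to 438 to 569 CPM in mTEChi, and their part in the ratio was not tested. In adult mTEChi AireKO the Ctss to Ctsl ratio was 2.97 ± 0.409, above WT by 2.12 (SE 0.225, exact permutation p = 0.00303, adjusted p = 0.00808), with no overlap. Cortical epithelial markers summed to 579 to 698 CPM in adult mTEChi AireKO and to 438 to 569 CPM in WT. The mTEC markers summed to 1837 to 2192 CPM in AireKO and to 2600 to 2910 CPM in WT. The part of these markers was not tested, and library kind and genotype cannot be told apart here. In neonatal mTEChi EEDcKO the ratio was 0.16 ± 0.559 against -0.24 ± 0.827 in Ctrl, a difference of 0.40 (SE 0.491, exact permutation adjusted p = 0.5).

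**Figure D3:**
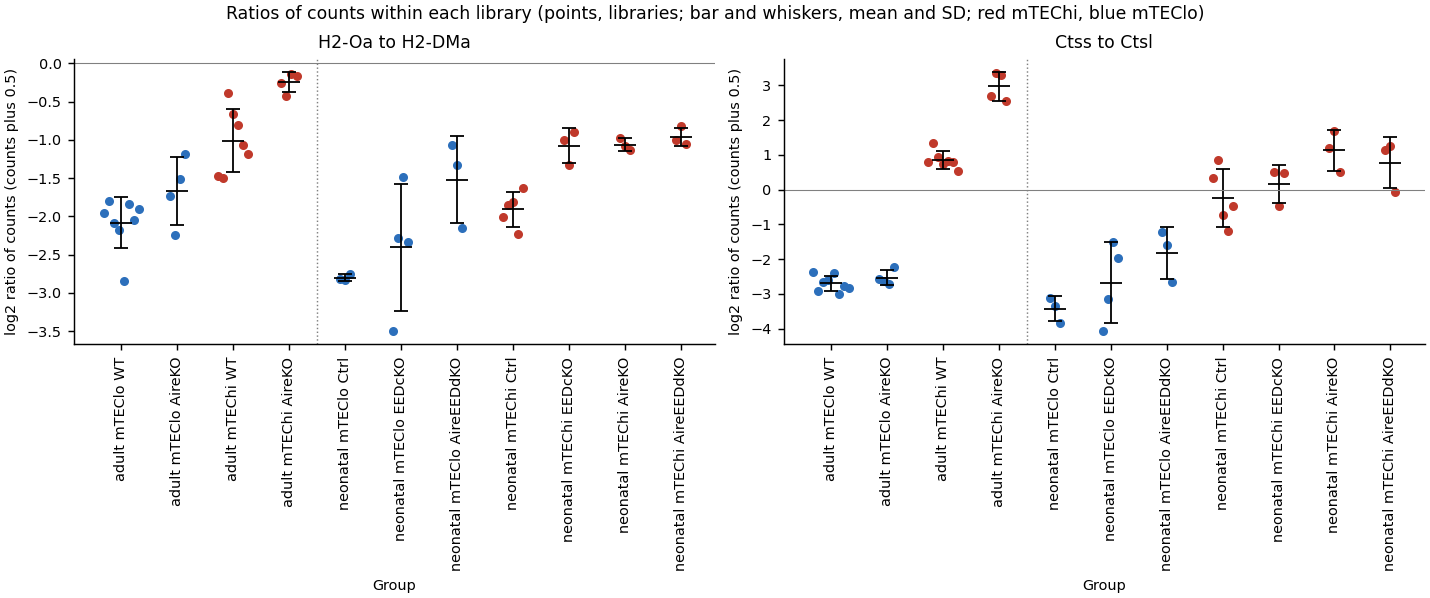
Log2 ratio of counts (plus 0.5) of H2-Oa to H2-DMa and of Ctss to Ctsl in every library of the 11 groups, red for mTEChi and blue for mTEClo, with bars for the mean and whiskers for the SD. Both ratios lie higher in mTEChi than in mTEClo WT, and the Ctss to Ctsl ratio of adult mTEChi AireKO averages 2.97 against 0.85 in WT.

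The partner genes outside the 9 were counted by role. In adult WT, all 4 other class II genes were higher in mTEChi (36.8% of all genes). H2-Ob, the partner of H2-Oa, differed by 3.03 (SE 0.105, adjusted p = 1.27e-19), H2-Eb2 by 3.34 (SE 0.137, adjusted p = 2.92e-18), and H2-Ea-ps by 4.15 (SE 0.408, adjusted p = 4.31e-10). H2-Ob was higher in AireKO than in WT in adult mTEChi, at 256 to 292 CPM against 116 to 147 CPM (1.09, SE 0.103, adjusted p = 1.24e-09), and in mTEClo by 1.19 (SE 0.133, adjusted p = 1.7e-07). In neonatal mTEChi H2-Ob differed by 1.20 between AireKO and Ctrl (SE 0.317, adjusted p = 0.00687) and was -0.64 between EEDcKO and Ctrl (adjusted p = 0.158), whereas H2-Oa passed in both. H2-Eb2 differed between adult AireKO and WT by 0.01 in mTEChi (adjusted p = 0.949) and by 1.21 in mTEClo (SE 0.157, adjusted p = 2.01e-06), and this difference between fractions passed at -1.20 (SE 0.219, adjusted p = 0.000166). H2-Ea-ps was lower in EEDcKO than in Ctrl in mTEChi, by -1.14 (SE 0.294, adjusted p = 0.0047), and in mTEClo, by -1.20 (SE 0.341, adjusted p = 0.00998).

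Of 7 promoter factors, 1 was higher and 5 were lower in adult mTEChi WT than in mTEClo WT, against 36.8% of all tested genes higher and 33.7% lower. Rfx5, a subunit of the RFX complex, was the 1 that was higher (1.09, SE 0.0876, adjusted p = 6.75e-12), and its partner Rfxap was lower by -0.97 (adjusted p = 3.08e-05). In AireKO 3 of 7 were higher in adult mTEChi and 0 lower (26.6% and 28.8% of all genes), among them Rfxank (0.99, SE 0.157, adjusted p = 5.66e-06) and Rfx5 (0.76, SE 0.0986, adjusted p = 2.63e-07). In neonatal mTEChi EEDcKO 3 were higher and 1 lower (19.1% and 13.6% of all genes), with Rfxap at 1.27 (SE 0.209, adjusted p = 0.000101).

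Of 7 endosomal proteases and reductases, 3 were higher and 2 lower in adult mTEChi WT, counts near the 36.8% and 33.7% of all genes. Ctsl, the cortical cathepsin, was lower by -1.78 (SE 0.101, adjusted p = 3.53e-15), and in AireKO by -3.41, a difference that itself passed at -1.63 (SE 0.180, adjusted p = 1.53e-07). Ctsl was at 66.0 to 91.1 CPM in adult mTEChi WT and at 19.6 to 35.5 CPM in AireKO. Ctsh, an aminopeptidase, was higher by 1.87 (SE 0.101, adjusted p = 1.22e-15), and Ifi30, the thiol reductase GILT, by 1.27 (adjusted p = 3.33e-11). Of 3 genes of class II turnover, Cd83, which protects class II from ubiquitin-dependent loss, was higher by 4.76 (SE 0.177, adjusted p = 4.37e-19) and the ubiquitin ligase gene March8 lower by -1.34 (adjusted p = 3.28e-15). March1 was lower in adult mTEChi AireKO than in WT, by -2.57 (SE 0.432, adjusted p = 1.33e-05). Of 14 tested class I genes 5 were higher and 4 lower in adult mTEChi WT, also near the shares of all genes.

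Some members share bases with other genes, and counting without strand cannot assign reads on those bases to either gene. The authors' methods give no rule for such reads, so they may have been left out of both genes. H2-Oa shares 321 of its 1407 exon bases (22.8%) with the antisense gene BC051537, which was at 0.2 to 5.0 CPM on average in the groups and rose in adult mTEChi AireKO by 1.24 (SE 0.370, adjusted p = 0.00576). Whether any H2-Oa counts fell on the shared bases was not tested. Ciita shares 329 of 9535 bases (3.45%) with Dexi, which was itself higher in adult mTEChi AireKO, by 0.91 (SE 0.0979, adjusted p = 1.24e-08), and in neonatal mTEChi AireKO, by 0.86 (SE 0.138, adjusted p = 0.000106). H2-DMa shares 360 of 3448 bases (10.4%) with Brd2, which was at -0.00 in adult mTEChi AireKO (adjusted p = 0.967). H2-DMb1 has a near-identical copy, H2-DMb2. Alignments of low mapping quality were removed, so reads that fit both copies may be missing from both.

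The genes most like 2 members were ranked by the lower of their correlations of log2 CPM in the 23 adult and 24 neonatal libraries. These are a description, since the libraries share depth and fraction. For Ciita they were Dexi (r = 0.927 and 0.918), Irf8 (0.959 and 0.906), Sh3pxd2a (0.982 and 0.890), Plbd2 (0.905 and 0.883) and Ptpn1 (0.934 and 0.880), and among the members H2-DMb1 (0.932 and 0.828) was the closest. For H2-Aa the closest members were H2-Eb1 (0.987 and 0.990), Cd74 (0.959 and 0.949) and H2-Ab1 (0.976 and 0.941), followed outside the 9 by Txn1 (0.956 and 0.943), Cox6b1 (0.942 and 0.951), Tmsb4x (0.927 and 0.937), Cox4i1 (0.924 and 0.928) and Serinc3 (0.915 and 0.952).

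The chains and Cd74 moved with depth within groups, and the other members less so. For H2-Aa the within-group slope of log2 CPM on log2 library total was -0.63 among adult and -0.65 among neonatal libraries, and for Cd74 it was -0.70 and -0.75. It was -0.10 and -0.22 for H2-DMa, 0.16 and -0.17 for H2-Oa, and -0.28 and -0.12 for Ciita. Abundant genes as a class had such slopes: the median was -0.69 over the 19 adult genes above 200 CPM per kb, and 0.10 over the 8672 genes under 5 CPM per kb. In adult mTEChi WT, the shallow libraries had a mean H2-Aa of 810 CPM and the deep ones of 580 CPM, with no overlap, while H2-DMa was at 113 and 115 CPM. The source of these slopes was not tested.

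**Figure D4:**
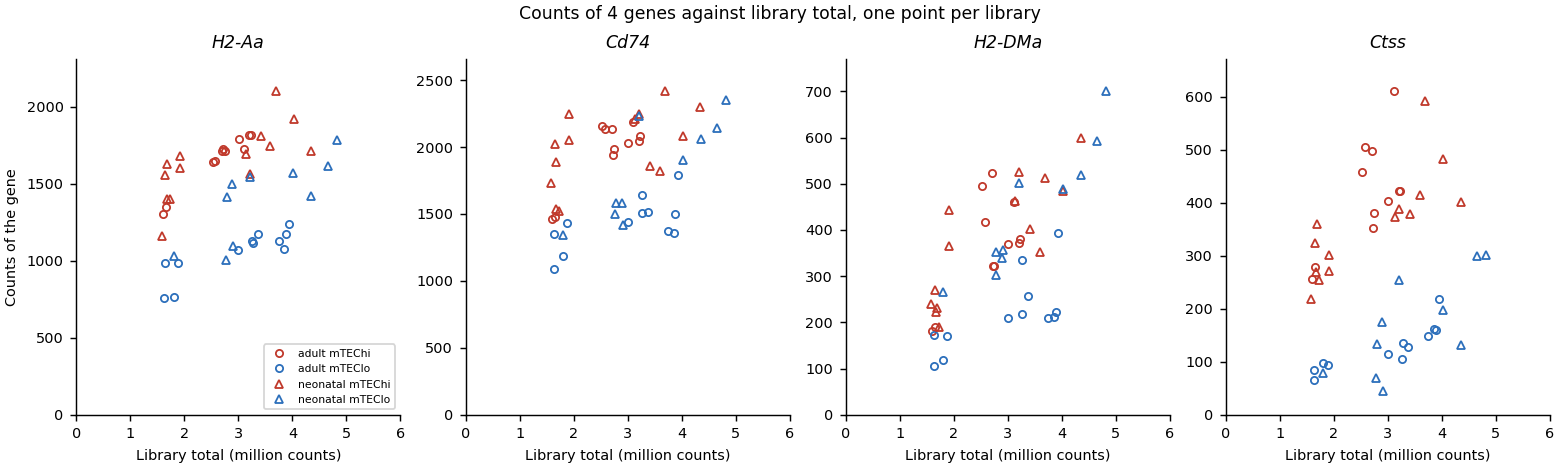
Counts of H2-Aa, Cd74, H2-DMa and Ctss in each library against the library total, with circles for adult, triangles for neonatal, red for mTEChi and blue for mTEClo. Cd74 counts climb less steeply with the total than H2-DMa counts, as their adult slopes of log2 CPM of -0.70 and -0.10 describe.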

How the data were processed

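Libraries were made by the RamDA-seq method (oligo-dT and random primers, no strand). Per the authors' methods, reads were trimmed (fastp 0.20.0), mapped to mm10 (STAR 2.7.3a), stripped of low-quality alignments and of position duplicates without molecular identifiers (Picard 2.21.1, SAMtools 1.9), and counted per gene without strand (htseq-count 0.11.2). The deposited values are raw counts, and their annotation release is not given in the sources used here. Genes were named by Ensembl ID from the GRCm38 annotation. The members and gene lists were chosen with earlier results of these data known, so no list count is independent support. The interferon-γ list is not reported here.

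Each table was fitted once over all its groups with edgeR 4.0.16 (filterByExpr, TMM, quasi-likelihood test, R 4.3.3), with p-values adjusted by Benjamini-Hochberg over 19310 adult and 20196 neonatal genes. Changed means an adjusted p under 0.05, and called also a fold of at least 2. The 9 members, Aire and Eed were always named, with at most 6 genes of each list by smallest adjusted p, and the 5 genes most like Ciita and H2-Aa. No 2 libraries were identical (253 and 276 pairs). Tests of 2-gene ratios were exact permutation tests on counts plus 0.5. Scripts were tested on simulated data for adult mTEChi AireKO against WT and neonatal mTEChi EEDcKO against Ctrl. There 34.3% and 26.9% of 1.5-fold changes were recovered, and 85.1% and 64.2% of 2-fold changes. Of all calls 9.32% and 2.38% were false. A member that did not pass may therefore still differ.

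Same-numbered libraries deviated together, at r over 0.1 in every pair, in adult AireKO mTEChi and mTEClo (0.139 to 0.222), neonatal AireEEDdKO (0.291 to 0.416) and neonatal mTEChi AireEEDdKO and AireKO (0.108 to 0.213), and not in the other comparisons. Alternatives were DESeq2 1.42.0, other scaling and filters, the replicate block, age, sex and library kind as terms, leaving out each library, and 2 chosen after seeing the data (log2 library total as a term, and deep libraries only). SEs of log2 differences come from the quasi-likelihood fit, and those of ratios from the spread between libraries.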

Additional observations from a re-analysis of the deposited data

Results flagged for a closer look

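Of 66 groups of values tested for a library far from the others, 3 had one, and chance gives about 1 in 20 groups. Ctss in adult mTEClo WT was at 56.3 CPM in replicate 1, with the next at 42.0 and the lowest at 32.0 CPM (n = 8). H2-DMa in adult mTEChi WT was at 119 CPM in replicate 6, with the next at 115 and the lowest at 112 CPM (n = 7). The log2 ratio of H2-Oa to H2-DMa in adult mTEClo WT was -2.84 in replicate 5, with the next at -2.18 and the highest at -1.80 (n = 8). None of 27 member values for a difference between fractions or genotypes in an effect passed its test.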

How the results depend on the processing

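Of 48 member differences past the threshold, 907 of 1014 alternative values were still past it in the same direction, 107 were no longer past it and 0 reversed. Of 96 others, 110 of 2082 alternative values passed, and 112 had another sign, 0 of them past the threshold. With no minimum fold the members counted rose to 9 and 8 (adult WT and AireKO mTEChi against mTEClo), 5 and 3 (adult AireKO against WT in mTEChi and mTEClo), 8 (AireEEDdKO mTEChi against mTEClo), 2 (EEDcKO mTEChi), 7 (neonatal AireKO) and 3 (AireEEDdKO against EEDcKO). At 2-fold, adult mTEClo AireKO against WT fell to 0 with age as a term, with library kind as a term and in libraries with mitochondrial counts, and to 0 to 1 when 1 library was left out (0 without mTEClo WT replicate 5 or AireKO replicate 4). Library kind as a term gave 4 for adult mTEChi AireKO against WT, and 1 for the adult interaction, as did the deep libraries alone. With library kind as a term Aire in adult mTEChi AireKO was at 0.14 (adjusted p = 0.931): this fit takes the effect of kind from the mTEClo AireKO libraries. AireEEDdKO mTEChi against mTEClo gave 1 with library size alone, 1 with the total as a term, 0 in deep libraries and 1 to 6 with 1 library left out. AireEEDdKO against EEDcKO gave 1 with sex as a term in mTEChi and in mTEClo, 1 in mTEClo with no filter, and 0 to 1 with 1 library left out in both (1 without mTEChi AireEEDdKO replicate 3, or without mTEClo AireEEDdKO replicate 3 or EEDcKO replicate 3). The deep libraries alone gave 0 in neonatal Ctrl mTEChi against mTEClo, mTEChi EEDcKO and mTEChi AireKO against Ctrl, and neonatal AireKO ran from 1 to 3 with 1 library left out (3 without AireKO replicate 3). Where the setting's construction does not show the cause, the cause was not tested.

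The ratios kept their direction when 1 library was left out, but with 2 libraries against 5 the adjusted p rose to 0.0544. Over all libraries left out, the H2-Oa to H2-DMa difference was 0.743 to 0.960 for EEDcKO against Ctrl and 0.824 to 0.975 for neonatal Ctrl mTEChi against mTEClo, where the Ctss to Ctsl difference was 2.92 to 3.43.

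With the replicate block the number of members at 2-fold was as reported in all comparisons, 4 for adult WT and for AireKO mTEChi against mTEClo, 3 for AireEEDdKO and 1 for mTEChi AireKO against WT. The block gave same-numbered libraries of all groups of an age a shared term, although these deviated together in only some comparisons. It is therefore no test of pairing within a genotype. At an adjusted p alone the block gave 9 for adult AireKO mTEChi against mTEClo (8 without), 4 for neonatal AireKO against Ctrl (7) and 1 for EEDcKO against Ctrl (2).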
